A study of Mus musculus with 9 samples.

Results

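*Hmox1*, *Blvra*, *Blvrb*, *Slc48a1*, *Fth1*, *Ftl1*, *Ncoa4*, *Tfrc*, *Slc11a2* and *Slc40a1* are the 10 genes of heme breakdown and iron handling described here, out of 54432 genes in the deposited table. They were picked by symbol for their known roles, with earlier results of these data in view, and all 10 passed the filter on low counts. The libraries were made from RAW 264.7 cells, a macrophage-like line of the mouse, and fall into 3 groups of 3. Control cells were left untreated, VLDL-sized cells received 1 mM of an emulsion with particles the size of very low-density lipoprotein, and CHYL-sized cells received 1 mM of an emulsion with particles the size of chylomicrons. Both treatments lasted 6 hours. The labels and the methods give 1 mM for both emulsions, although a legend of the study names a lower dose for the CHYL-sized particles. The emulsions were laboratory preparations of plant oil and milk protein, so they model the size and the triglyceride of the lipoproteins and not their apolipoproteins. All libraries came from the same line grown in serum, and according to the methods each is a pool of the samples of a condition within an experiment.

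Macrophages take up aged red blood cells and return their iron to the circulation. Heme that reaches the cytosol is opened by heme oxygenase, which releases iron, carbon monoxide and biliverdin, and biliverdin reductases convert biliverdin to bilirubin. The freed iron is stored in ferritin or leaves the cell through ferroportin. When iron is scarce, iron regulatory proteins bind hairpins in mRNAs called iron-responsive elements, which holds back translation of ferritin and ferroportin and protects the mRNA of the transferrin receptor from decay.

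The letters of these hairpins were searched for in the GENCODE transcripts of the 10 genes, because they mark mRNAs that iron can control after transcription. That step is one that mRNA levels show only in part. The pattern was a C, 5 bases, CAGTG followed by A, C or T, and 5 bases that pair with the earlier 5, with G:T pairs allowed. Hairpins with a bulge or a mismatch among these pairs were not sought. A gene without a match, *Slc11a2* included, is therefore not shown to lack an element. It was found in the 5′ UTR of *Fth1*, *Ftl1* and *Slc40a1* and at 4 places in the 3′ UTR of *Tfrc*. The annotated coding transcripts with the pattern were 4 of 5 for *Fth1*, 1 of 2 for *Ftl1*, 1 of 4 for *Slc40a1* and 1 of 3 for *Tfrc*. Capitals mark the unpaired C and the loop, all positions are on GRCm38, and each line shows 30 bases in the direction of the mRNA.
Fth1 5′ UTR, chr19:9982732-9982761, plus strand: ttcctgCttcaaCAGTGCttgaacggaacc
Ftl1 5′ UTR, chr7:45459778-45459807, minus strand: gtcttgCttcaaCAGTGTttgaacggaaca
Slc40a1 5′ UTR, chr1:45925464-45925493, minus strand: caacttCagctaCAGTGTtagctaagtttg
Tfrc 3′ UTR, chr16:32631219-32631248, plus strand: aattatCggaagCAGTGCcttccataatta
Tfrc 3′ UTR, chr16:32631598-32631627, plus strand: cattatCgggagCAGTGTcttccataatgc
Tfrc 3′ UTR, chr16:32631663-32631692, plus strand: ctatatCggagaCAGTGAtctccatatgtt
Tfrc 3′ UTR, chr16:32631710-32631739, plus strand: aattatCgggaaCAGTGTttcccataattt
Among 21901 protein-coding genes, 23 (0.105%) held the pattern in a 5′ UTR and 100 (0.457%) in a 3′ UTR. A match of letters describes the sequence and was not tested for binding.

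Total estimated counts per library lay between 22393893 and 22856792, so depth was nearly equal. All 9 macrophage markers, among them *Adgre1*, *Cd68* and *Csf1r*, were expressed, and their summed level was 7152 to 7355 cpm in control, 5954 to 6267 cpm in VLDL-sized and 6166 to 6484 cpm in CHYL-sized libraries. Here cpm are the counts of a gene per 1000000 counts of a library, after TMM scaling (trimmed mean of M-values), which evens out differences in composition. The marker sums of this paragraph are the exception and were taken without TMM scaling. With limma, 6 of the macrophage markers fell and 1 rose with VLDL-sized particles (77.8% called, against 35.6% of all genes). With CHYL-sized particles 3 fell (33.3%, against 25.7% of all genes). The part of these markers in the results below was not tested. The summed cpm of 8 erythroid markers, haemoglobin genes included, was at most 1.10 in any library, with 3 of them at 0 throughout, that of 5 fibroblast markers at most 2.51, that of 5 lymphocyte markers at most 0.219 and that of 5 neutrophil markers at most 2.21. The 5 epithelial and hepatocyte markers were at 0 in all libraries. The replicate 3 libraries of the groups deviated together across genes (correlations of 0.293, 0.338 and 0.357 between their deviations from the group means), so the values of single genes are also given without them where that changed a call. In bulk libraries, a change in the share of cells that express a gene and a change in RNA per cell cannot be told apart.

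Of the 10 genes, 7 rose with both particles. With VLDL-sized particles 9 genes passed the test, namely these 7 and 2 that fell, and with CHYL-sized particles the 7 passed alone. Over all 12637 genes tested with limma-voom, 35.6% passed for VLDL-sized against control at an adjusted p under 0.05, of which 17.8% of the genes tested were increases and 17.9% decreases. For CHYL-sized against control 25.7% passed, with 12.7% increases and 13% decreases. The median log2 fold change of the 10 genes was 0.84 with VLDL-sized and 0.75 with CHYL-sized particles, while the medians of all genes tested lay within 0.002 of 0. The highest and lowest libraries did not overlap between VLDL-sized and control for 9 of the 10 genes, against 47.4% of all genes, and between CHYL-sized and control for 8 of the 10, against 41.7% of all genes. Scaling by library size alone in place of TMM changed the split over all genes, of which 31.3% of those called were then higher after VLDL-sized and 29.8% after CHYL-sized particles, against 49.9% and 49.6% with TMM, and it moved the median of all genes to -0.09 and -0.08. With the replicate number as a block all 10 genes passed with VLDL-sized particles, as did 47.9% of all genes (6058 in place of 4500). Both particle comparisons use the same 3 control libraries.

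**Figure D1:**
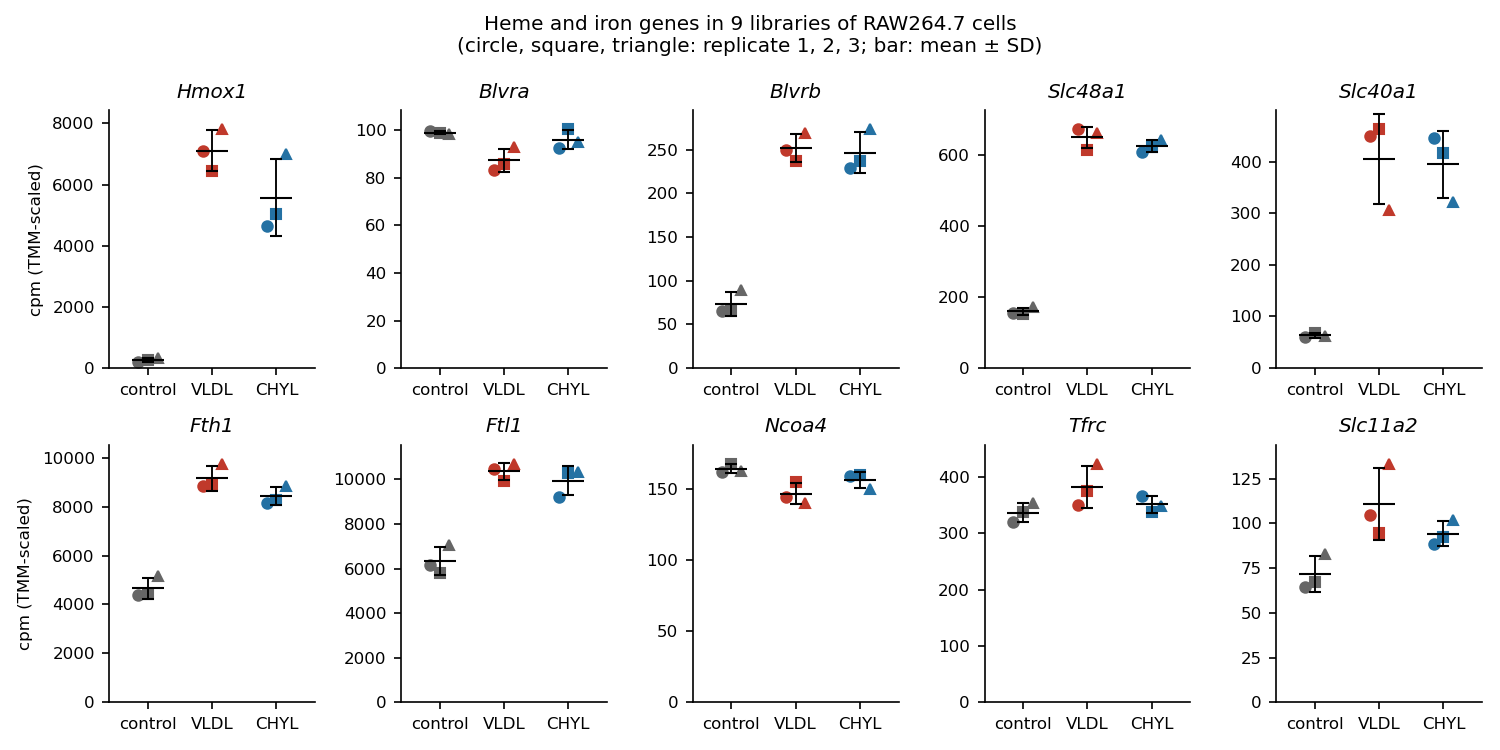
Level of each gene in cpm after TMM scaling (vertical axes start at 0), with a point for each of the 9 libraries and bars for the mean ± SD of 3 libraries. *Hmox1*, *Blvrb*, *Slc48a1*, *Slc40a1*, *Fth1*, *Ftl1* and *Slc11a2* lie above the control libraries in all 6 treated libraries, while *Blvra*, *Ncoa4* and *Tfrc* lie close to them.

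*Hmox1* (ENSMUSG00000005413, chr8:75093621-75100589, plus strand) encodes heme oxygenase 1, the inducible enzyme that opens the heme ring. Its level was 203, 252 and 334 cpm in the control libraries, 7097, 6440 and 7806 cpm in the VLDL-sized libraries and 4656, 5045 and 7015 cpm in the CHYL-sized libraries. Every treated library was thus far above every control library. The log2 fold change was 4.78 with VLDL-sized particles (SE 0.181, 27.5-fold, 95% interval 20.9 to 36.3, adjusted p = 3.85e-08) and 4.41 with CHYL-sized particles (SE 0.181, 21.3-fold, 16.1 to 28.1, adjusted p = 8.99e-08). The gene took 0.0213% to 0.0341% of all counts in control, 0.633% to 0.752% in VLDL-sized and 0.463% to 0.680% in CHYL-sized libraries. In each of the 3 groups the replicate 3 library was the highest. Without replicate 3 of every group the log2 fold changes were 4.90 and 4.42.

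The other heme oxygenase gene, *Hmox2*, encodes the form that most cells make constitutively. Its level was 80.7 ± 5.28 cpm in control, 67.0 ± 2.43 in VLDL-sized and 71.9 ± 4.20 in CHYL-sized libraries (mean ± SD, n = 3). It fell with VLDL-sized particles by 0.27 on the log2 scale (SE 0.0643, limma adjusted p = 0.00847). With CHYL-sized particles the log2 fold change was -0.17 (adjusted p = 0.0821), and it passed the test without replicate 3 of every group (-0.18, adjusted p = 0.0208), without control replicate 3 (-0.22, adjusted p = 0.0264) and with library size alone (-0.25, adjusted p = 0.0277). The test of its difference between the particles did not pass (adjusted p = 0.856).

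The biliverdin reductases moved apart. *Blvrb* (ENSMUSG00000040466, chr7:27447978-27466144, plus strand), which also reduces flavins, was at 65.2, 65.6 and 89.7 cpm in control, 249, 237 and 269 cpm in VLDL-sized and 229, 236 and 273 cpm in CHYL-sized libraries. All treated libraries were above all control libraries, and the particle groups overlapped each other. The increase was 1.79 on the log2 scale with VLDL-sized (SE 0.116, 3.46-fold, adjusted p = 1.92e-06) and 1.76 with CHYL-sized particles (SE 0.116, 3.38-fold, adjusted p = 3.20e-06).

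*Blvra* (ENSMUSG00000001999, chr2:127070665-127097084, plus strand) encodes the reductase that makes the bilirubin of adult tissue. It was at 99.7, 99.0 and 98.3 cpm in control, 83.5, 85.9 and 93.0 cpm in VLDL-sized and 92.6, 100 and 95.2 cpm in CHYL-sized libraries. The VLDL-sized libraries were all below the control libraries, whereas CHYL-sized and control libraries overlapped. The gene fell with VLDL-sized particles by 0.18 on the log2 scale (SE 0.0535, limma adjusted p = 0.0227). This call was lost when control replicate 1, control replicate 2, VLDL-sized replicate 1 or VLDL-sized replicate 2 was left out (adjusted p 0.0607 to 0.0849). With CHYL-sized particles the log2 fold change was -0.04 (95% interval -0.16 to 0.07, adjusted p = 0.591).

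*Slc48a1* (ENSMUSG00000081534, chr15:97778520-97792692, plus strand) encodes HRG1, which carries heme from phagolysosomes into the cytosol. Its level was 155, 152 and 171 cpm in control, 672, 615 and 661 cpm in VLDL-sized and 609, 623 and 642 cpm in CHYL-sized libraries. The replicates lay close together in all 3 groups, and the treated libraries were well above control. The log2 fold change was 2.03 with VLDL-sized (SE 0.0568, 4.08-fold, 95% interval 3.74 to 4.45, adjusted p = 5.58e-09) and 1.97 with CHYL-sized particles (SE 0.0568, 3.92-fold, 3.60 to 4.28, adjusted p = 1.06e-08).

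*Slc40a1* (ENSMUSG00000025993, chr1:45908068-45926523, minus strand) encodes ferroportin, the only known exporter of iron from mammalian cells. It was at 60.1, 68.2 and 61.4 cpm in control, 449, 462 and 305 cpm in VLDL-sized and 445, 417 and 322 cpm in CHYL-sized libraries. Replicate 3 was the lowest library of both particle groups, and even there the level was above all control libraries. Ferroportin mRNA rose by 2.66 on the log2 scale with VLDL-sized (SE 0.164, 6.31-fold, 95% interval 4.91 to 8.12, adjusted p = 1.50e-06) and by 2.63 with CHYL-sized particles (SE 0.164, 6.20-fold, 4.81 to 7.97, adjusted p = 2.11e-06). Without replicate 3 of every group the values were 2.83 and 2.75. Of its 4 annotated coding transcripts 1 holds the iron-responsive element shown above, and counts per gene do not tell the transcripts apart.

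**Figure D2:**
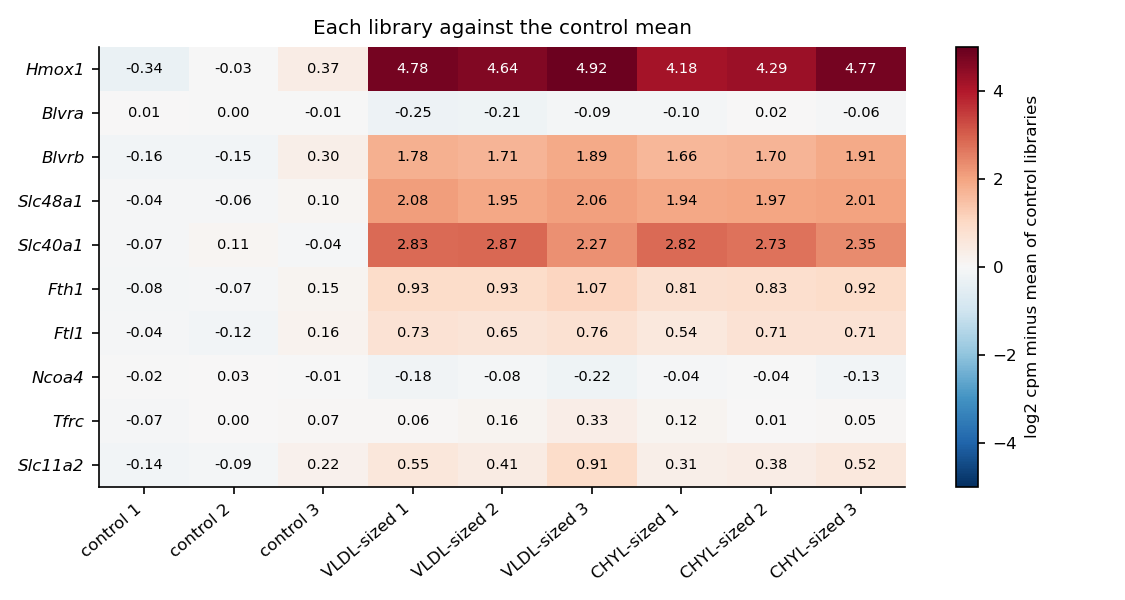
Difference of log2 cpm from the mean of the 3 control libraries (colour scale and printed values), for each gene (rows) in each of the 9 libraries (columns). The treated libraries lie between 4.18 and 4.92 for *Hmox1*, between 2.27 and 2.87 for *Slc40a1* with replicate 3 lowest, and between -0.25 and 0.02 for *Blvra*.

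The ferritin subunits both rose. *Fth1* (ENSMUSG00000024661, chr19:9980598-9985098, plus strand) encodes the heavy subunit, which oxidizes iron for storage, and was at 4403, 4438 and 5154 cpm in control, 8861, 8867 and 9749 cpm in VLDL-sized and 8161, 8263 and 8832 cpm in CHYL-sized libraries. The groups did not overlap, and the highest CHYL-sized library was just below the lowest VLDL-sized library. *Fth1* increased by 0.98 on the log2 scale with VLDL-sized (SE 0.0690, 1.97-fold, adjusted p = 3.40e-06) and by 0.85 with CHYL-sized particles (SE 0.0690, 1.81-fold, adjusted p = 1.30e-05).

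*Ftl1* (ENSMUSG00000050708, chr7:45457944-45459884, minus strand) encodes the light subunit, which helps the iron core to form. It was at 6139, 5816 and 7044 cpm in control, 10454, 9936 and 10697 cpm in VLDL-sized and 9188, 10298 and 10333 cpm in CHYL-sized libraries. Both particle groups lay above control and overlapped each other. The increase was 0.71 on the log2 scale with VLDL-sized (SE 0.0744, 1.64-fold, adjusted p = 4.28e-05) and 0.65 with CHYL-sized particles (SE 0.0744, 1.57-fold, adjusted p = 1.30e-04).

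The 2 subunit genes together took 1.14 ± 0.0897% of all counts in control, 1.90 ± 0.0612% in VLDL-sized and 1.81 ± 0.0712% in CHYL-sized libraries (mean ± SD, n = 3). The share was thus higher by 0.760 and 0.663 percentage points, each with p = 0.1 in a two-sided exact permutation test, which is the smallest p that 3 against 3 libraries allow. *Fth1* counts per *Ftl1* count were 0.717, 0.763 and 0.732 in control, 0.848, 0.892 and 0.911 in VLDL-sized and 0.888, 0.802 and 0.855 in CHYL-sized libraries. All treated libraries had a higher ratio than all control libraries, and since both genes are read in the same library this does not depend on the scaling. The log2 ratio was higher by 0.26 with VLDL-sized and by 0.20 with CHYL-sized particles (exact permutation p = 0.1 for each, again the smallest possible). Many ferritin copies lie in the mouse genome, but the other genes with a symbol that begins with Fth or Ftl held at most 0.0333% of the counts of *Fth1* and *Ftl1* in any library. Copies under other names were not examined, and how reads were shared among them by the counting was not tested.

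*Ncoa4* (ENSMUSG00000056234, chr14:32159865-32179855, plus strand) encodes the receptor that delivers ferritin to lysosomes for breakdown. It was at 162, 168 and 163 cpm in control, 145, 155 and 141 cpm in VLDL-sized and 159, 160 and 150 cpm in CHYL-sized libraries. All 6 treated libraries lay below all 3 control libraries, by a small margin. The gene fell by 0.16 on the log2 scale with VLDL-sized particles (SE 0.0513, limma adjusted p = 0.0306). The call was lost when control replicate 1, control replicate 2, VLDL-sized replicate 1 or VLDL-sized replicate 3 was left out (adjusted p 0.0630 to 0.0999). With CHYL-sized particles the log2 fold change was -0.07 (95% interval -0.18 to 0.04, adjusted p = 0.356).

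*Tfrc* (ENSMUSG00000022797, chr16:32608920-32632794, plus strand) encodes the transferrin receptor, which brings in iron bound to transferrin, and 1 of its 3 annotated coding transcripts holds the 4 elements of the 3′ UTR shown above. It was at 320, 338 and 354 cpm in control, 351, 375 and 424 cpm in VLDL-sized and 367, 339 and 349 cpm in CHYL-sized libraries. Both particle groups overlapped control. The log2 fold change was 0.18 with VLDL-sized particles (SE 0.0707, limma adjusted p = 0.0688). With the replicate number as a block it was again 0.18 (SE 0.0544) and passed the test (adjusted p = 0.0158), as it did without replicate 3 of every group (0.14, adjusted p = 0.0436) and without VLDL-sized replicate 1 (0.24, adjusted p = 0.0272). With CHYL-sized particles it was 0.06 (95% interval -0.10 to 0.22, adjusted p = 0.583), and with library size alone -0.02.

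*Slc11a2* (ENSMUSG00000023030, chr15:100387898-100425072, minus strand) encodes DMT1, which moves ferrous iron out of endosomes. It was at 64.7, 67.1 and 83.0 cpm in control, 104, 94.6 and 133 cpm in VLDL-sized and 88.3, 92.5 and 102 cpm in CHYL-sized libraries. The treated libraries were all above control, and replicate 3 was the highest library of each group. *Slc11a2* increased by 0.62 on the log2 scale with VLDL-sized (SE 0.128, 1.54-fold, adjusted p = 0.00331) and by 0.40 with CHYL-sized particles (SE 0.128, 1.32-fold, adjusted p = 0.0415). The CHYL-sized call was lost with library size alone (0.32, adjusted p = 0.0679), without a filter (0.40, adjusted p = 0.0565) and when any of 5 libraries was left out, namely control replicate 1 or 2 or any CHYL-sized replicate (adjusted p 0.0615 to 0.144).

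**Figure D3:**
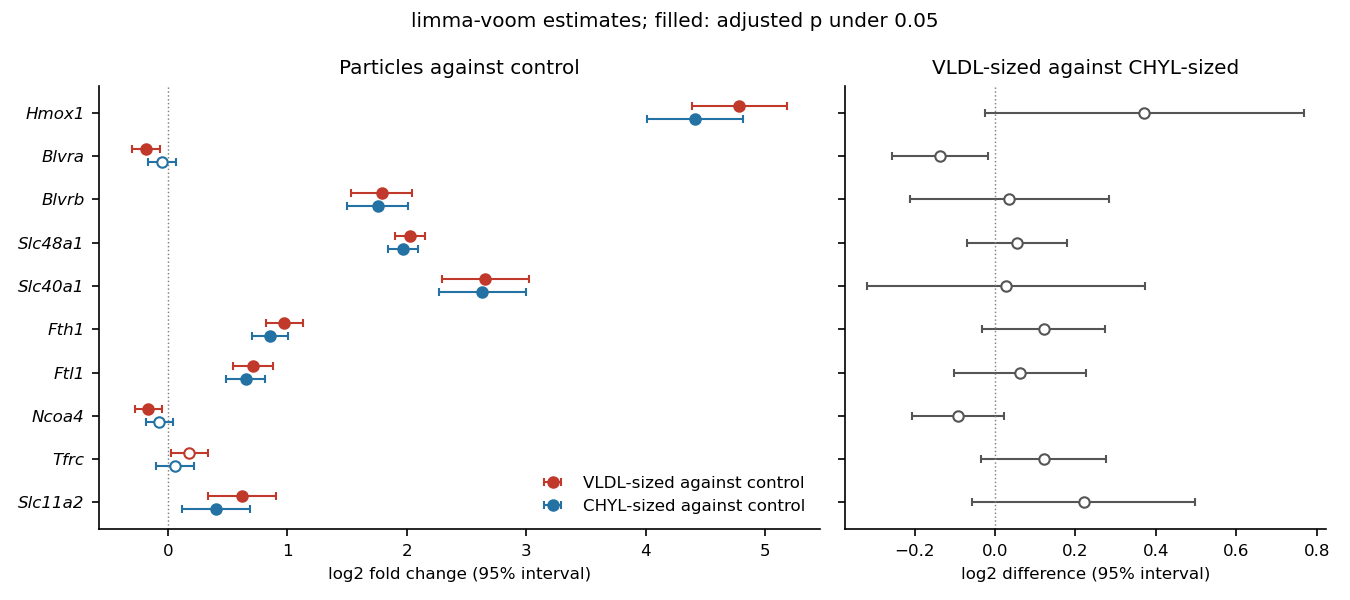
Log2 fold change of each particle against control (left) and log2 difference between VLDL-sized and CHYL-sized particles (right), from limma-voom with 3 libraries a group. Bars are 95% intervals and filled points have an adjusted p under 0.05. The changes run from 4.78 for *Hmox1* to -0.18 for *Blvra*, and no point of the right panel is filled.

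The particles were compared directly to ask whether particle size mattered for these genes. None of the 10 genes passed the test between VLDL-sized and CHYL-sized cells, and the *Hmox1* libraries of the particles overlapped. Over all genes 0 (0%) passed with limma and 813 (6.43%) had an unadjusted p under 0.05, while edgeR called 0 and DESeq2 called 24, none of them among the 10. *Hmox1* differed by 0.37 on the log2 scale (1.29-fold higher with VLDL-sized particles, 95% interval 0.982 to 1.70, limma adjusted p = 0.793). Without replicate 3 of every group the *Hmox1* difference was 0.48 and passed the test (limma adjusted p = 0.00359), so that this call depended on those libraries. With the replicate number as a block it was 0.37 (adjusted p = 0.0508).

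For the other genes the intervals of the difference bound how far the particles could differ. They ran from -0.26 to -0.02 for *Blvra* (difference -0.14), from -0.06 to 0.50 for *Slc11a2* (0.22) and from -0.03 to 0.27 for *Fth1* (0.12). *Fth1* was the only gene of the 10 whose VLDL-sized and CHYL-sized libraries did not overlap, as was the case for 11.3% of all genes tested. The interval of *Slc48a1* was narrow, from -0.07 to 0.18 (difference 0.06), and that of *Slc40a1* was wide, from -0.32 to 0.37 (0.03). *Blvrb* lay between -0.21 and 0.28 (0.04), *Ftl1* between -0.10 and 0.23 (0.06), *Ncoa4* between -0.21 and 0.02 (-0.09) and *Tfrc* between -0.04 and 0.28 (0.12).

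Levels were also compared between genes as cpm per kilobase of the longest principal transcript. In control cells *Ftl1* (6542 ± 657) and *Fth1* (3123 ± 284) ranked 4 and 10 among 12636 genes with a length, followed by *Hmox1* (168 ± 42.2, rank 421). Then came *Blvra* (85.4 ± 0.605), *Blvrb* (71.5 ± 13.6), *Tfrc* (69.0 ± 3.46) and *Slc48a1* (62.8 ± 3.90), of which each neighbouring pair overlapped in its libraries. *Ncoa4* (40.4 ± 0.789), *Slc11a2* (23.7 ± 3.30) and *Slc40a1* (18.8 ± 1.29) were the lowest, with *Slc40a1* at rank 3857.

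The particles changed this order. *Hmox1* reached 4534 ± 436 cpm per kilobase and rank 11 with VLDL-sized and 3551 ± 806 and rank 12 with CHYL-sized particles, next to *Fth1* at ranks 7 and 9, while *Ftl1* stayed at rank 4. *Slc40a1*, the lowest of the 10 in control, moved to ranks 639 and 653, above *Blvra*, *Tfrc*, *Ncoa4* and *Slc11a2* in mean level. *Slc48a1* and *Blvrb* were side by side, at 256 ± 12.0 and 245 ± 16.0 with VLDL-sized and at 246 ± 6.52 and 239 ± 22.9 with CHYL-sized particles, and these pairs overlapped. The length matters most for *Fth1*, for which the shortest principal transcript of 929 bases in place of the 1494 used would give 5022 in control, 9859 in VLDL-sized and 9062 in CHYL-sized cells.

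**Figure D4:**
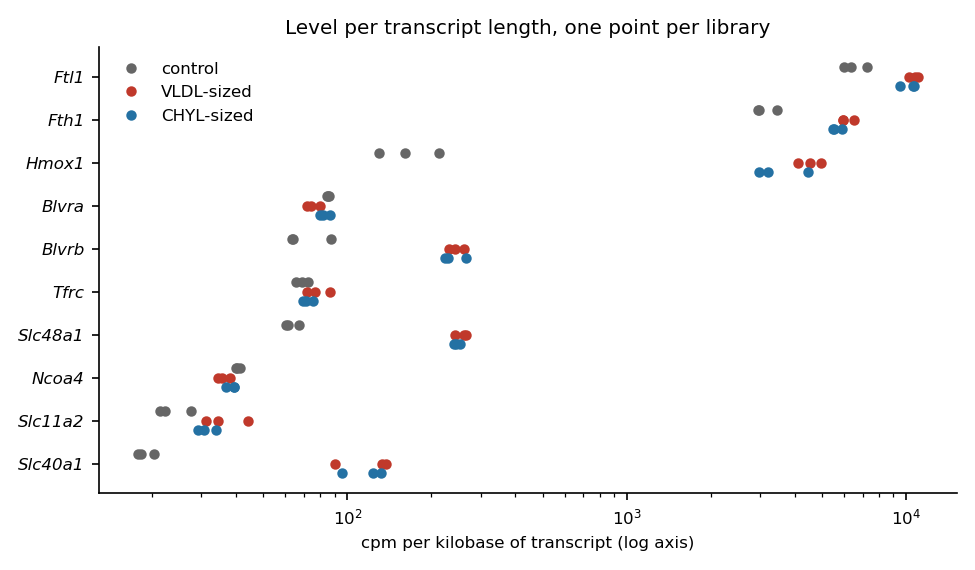
Level of each gene in cpm per kilobase of transcript (log axis), with a point for each library and the genes ordered by their control mean. *Ftl1* and *Fth1* are highest in control at 6542 and 3123, and *Hmox1* moves from 168 to 4534 with VLDL-sized and 3551 with CHYL-sized particles.

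The wider pathway was described with 81 further genes of heme and iron handling, of which 64 passed the filter on low counts. After VLDL-sized particles 18 were higher and 11 lower (45.3% called, against 35.6% of all genes), with a median log2 fold change of 0.01. After CHYL-sized particles 15 were higher and 7 lower (34.4%, against 25.7% of all genes), with a median of 0.04. With the replicate number as a block, 36 were called with VLDL-sized and 29 with CHYL-sized particles, when 47.9% and 39.2% of all genes were called. Without replicate 3 of every group it was 35 and 27, when 42.6% and 32.8% of all genes were called. None of the 64 passed between the particles.

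Among 4 tested genes of heme transport, 2 rose with both particles and 1 fell with CHYL-sized particles. These are 50% and 75% called, against 35.6% and 25.7% of all genes. *Abcb6*, described as a porphyrin transporter, went from 66.5 ± 4.13 cpm in control to 117 ± 8.05 with VLDL-sized (log2 fold change 0.81, adjusted p = 3.18e-05) and 110 ± 10.7 with CHYL-sized particles (0.72, adjusted p = 1.18e-04). The other that rose was *Flvcr1*, known as a heme exporter (0.54 and 0.47, limma adjusted p = 1.82e-04 and 7.09e-04). *Lrp1*, the receptor for hemopexin-bound heme, fell with CHYL-sized particles by 0.38 on the log2 scale (limma adjusted p = 0.0127). With VLDL-sized particles its log2 fold change was -0.25 (adjusted p = 0.0617), which passed under 6 of 16 alternatives. These were the replicate number as a block (-0.25, adjusted p = 0.00330), removal of replicate 3 of every group (-0.29, adjusted p = 0.00273) and removal of control replicate 3 (-0.33, adjusted p = 0.0155). The others were library size alone (-0.34, adjusted p = 0.0239), DESeq2 (-0.25, adjusted p = 0.0325) and only the groups compared (-0.25, limma adjusted p = 0.0429). The CHYL-sized call was lost without control replicate 2 (adjusted p = 0.0543). *Flvcr1* and *Lrp1* lie outside the rule for named genes, like *Bach2*, *Mafk*, *Keap1*, *Pcbp1* and *Cp* below, and their choice followed a look at their values. *Cd163*, the scavenger receptor for haemoglobin-haptoglobin complexes, had no counts in any library.

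Of 15 tested heme synthesis genes, 4 rose and 3 fell with VLDL-sized and 3 rose and 2 fell with CHYL-sized particles. These are 46.7% and 33.3% called, against 35.6% and 25.7% of all genes, and the median log2 fold changes were 0.00 and 0.01. *Alas1*, which starts heme synthesis and is repressed by heme in many cells, went from 37.3 ± 3.66 cpm in control to 76.0 ± 5.59 with VLDL-sized and 71.4 ± 5.32 with CHYL-sized particles. Its log2 fold changes were 1.03 and 0.94 (SE 0.0861 and 0.0864, limma adjusted p = 1.04e-05 and 3.25e-05). *Slc25a37*, mitoferrin 1, which carries iron into mitochondria, rose by 0.68 and 0.61 (adjusted p = 6.27e-05 and 2.18e-04).

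Of 3 tested genes of iron storage, *Pcbp1*, an iron chaperone of ferritin, fell with VLDL-sized particles by 0.25 on the log2 scale (limma adjusted p = 0.00310), and none passed with CHYL-sized particles (*Pcbp1* -0.13, adjusted p = 0.0862, and with library size alone -0.21, adjusted p = 0.00538). The storage genes called were 33.3% with VLDL-sized and 0% with CHYL-sized particles, against 35.6% and 25.7% of all genes. Of 7 tested iron uptake genes *Slc11a1* alone passed, with both particles (14.3% called with each, against the same shares of all genes). It encodes NRAMP1, which moves iron out of phagosomes. Its mRNA went from 250 ± 19.6 cpm in control to 571 ± 30.1 with VLDL-sized (2.29-fold, limma adjusted p = 3.70e-07) and 554 ± 4.79 with CHYL-sized particles (2.22-fold, adjusted p = 6.44e-07). Whether this line makes a working NRAMP1 protein was not examined, so the rise is one of mRNA and not of iron transport. Of the 5 other iron export genes, only the ferroxidase gene *Cp* passed the filter, at 0.876 cpm in control, and it did not pass the test.

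Of 10 tested genes of iron sensing and control, 3 rose and 2 fell with VLDL-sized and 2 rose and 2 fell with CHYL-sized particles, or 50% and 40% called, against 35.6% and 25.7% of all genes. The iron regulatory protein genes were *Aco1*, which fell by 0.30 on the log2 scale with each particle (SE 0.0841 and 0.0840, limma adjusted p = 0.0179 and 0.0251), and *Ireb2*, at 102 ± 2.81 cpm in control, 108 ± 3.35 in VLDL-sized and 108 ± 7.91 in CHYL-sized libraries (adjusted p = 0.294 and 0.352). The *Aco1* calls were lost without control replicate 1 or 2 with both particles, without VLDL-sized replicate 3 and without CHYL-sized replicate 2 or 3 (adjusted p 0.0599 to 0.0958). *Id1*, a target of BMP signalling, fell by 1.46 with VLDL-sized and by 0.96 with CHYL-sized particles (SE 0.266 and 0.247, limma adjusted p = 0.00158 and 0.0159), the latter not without control replicate 1 or control replicate 2 (adjusted p 0.0580 and 0.0531).

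Of 15 tested iron-sulfur cluster genes, 2 rose and 3 fell with VLDL-sized and 2 rose and 1 fell with CHYL-sized particles, which is 33.3% and 20% called, against 35.6% and 25.7% of all genes. *Lyrm4*, a partner of the cysteine desulfurase, rose by 0.68 and 0.67 on the log2 scale (adjusted p = 6.74e-04 and 0.00118), from a low level of 11.4 ± 1.03 cpm in control.

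Of 8 regulators of heme and iron genes, 6 rose and 1 fell with VLDL-sized particles, while 5 rose and 1 fell with CHYL-sized particles, or 87.5% and 75% called, against 35.6% and 25.7% of all genes. *Bach1*, a heme-binding repressor of *Hmox1*, went from 56.0 ± 5.85 cpm in control to 157 ± 17.1 with VLDL-sized (2.80-fold, adjusted p = 1.53e-05) and 136 ± 25.8 with CHYL-sized particles (2.40-fold, adjusted p = 8.16e-05). *Nfe2l2*, which encodes the activator NRF2, did not pass with either particle, at 284 ± 55.3 cpm in control, 254 ± 11.7 in VLDL-sized and 259 ± 21.0 in CHYL-sized libraries (adjusted p = 0.369 and 0.508). The small Maf genes, whose proteins pair with NRF2 and BACH1, rose in part. *Mafg* rose by 0.54 and 0.58 on the log2 scale (adjusted p = 4.92e-05 and 5.25e-05) and *Maff* by 1.47 and 1.15 (adjusted p = 1.81e-05 and 1.85e-04), the latter from 2.39 ± 0.315 cpm. *Mafk* rose by 0.73 with VLDL-sized particles (adjusted p = 0.00408) and had a log2 fold change of 0.44 with CHYL-sized particles (adjusted p = 0.0683), which passed without replicate 3 of every group (0.41, limma adjusted p = 0.00117), without control replicate 3 (0.55, adjusted p = 0.0399) and with DESeq2 (0.44, adjusted p = 0.0239).

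*Spic*, a factor of heme-exposed splenic macrophages, was near the limit of detection, with at most 62 counts in any library. It was at 0.312 ± 0.174 cpm in control, 2.06 ± 0.190 in VLDL-sized and 1.82 ± 0.874 in CHYL-sized libraries (log2 fold changes 2.81 and 2.54, SE 0.473 and 0.481, limma adjusted p = 9.97e-04 and 0.00311). *Keap1*, which directs NRF2 to degradation, rose by 0.28 and 0.27 (adjusted p = 0.0259 and 0.0420), and *Bach2* fell by 0.60 and 0.50 on the log2 scale (adjusted p = 0.00979 and 0.0306). The *Keap1* calls were lost with library size alone (0.19 with each particle, adjusted p = 0.0788 and 0.0974). They were also lost without control replicate 1 or 2 with both particles, without VLDL-sized replicate 1 or 3, without any CHYL-sized replicate, and for CHYL-sized cells with no filter (limma adjusted p 0.0536 to 0.129). The CHYL-sized call of *Bach2* was lost with no filter and without control replicate 1 or 2 or CHYL-sized replicate 2 or 3 (adjusted p 0.0567 to 0.108).

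**Figure D5:**
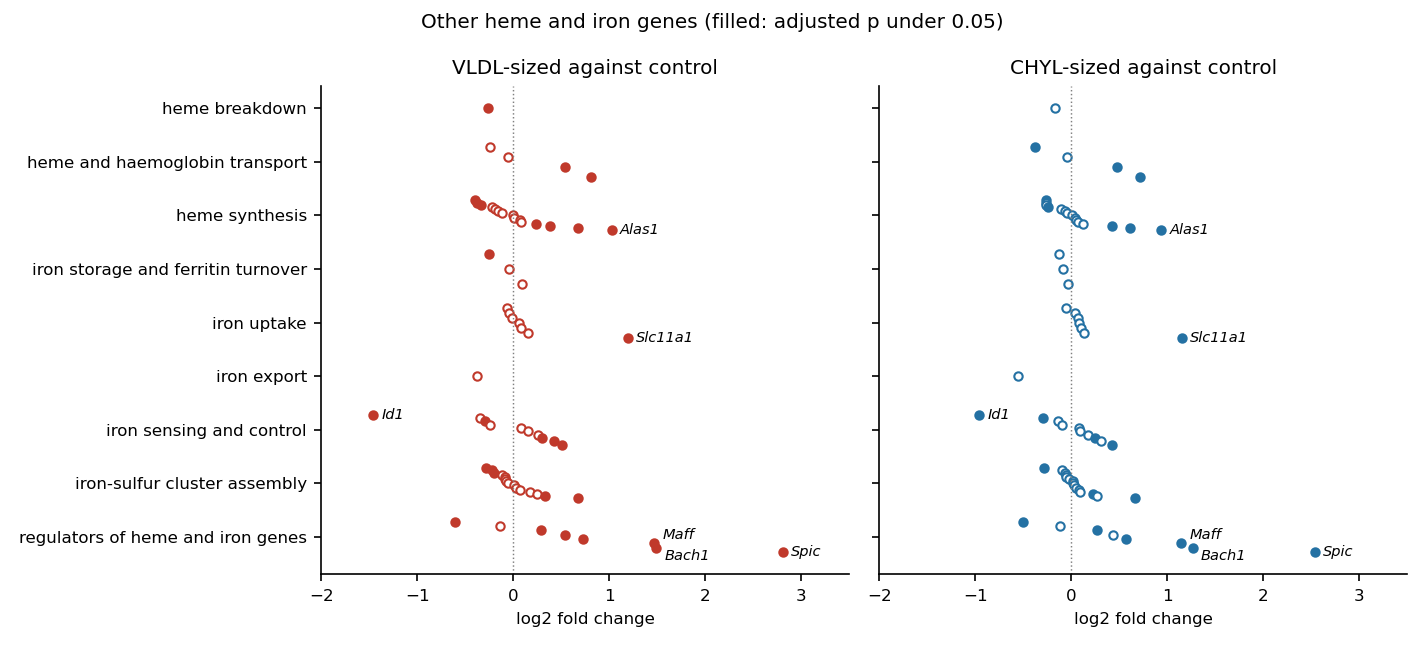
Log2 fold change of the 64 tested heme and iron genes outside the 10, by role, with VLDL-sized (left) and CHYL-sized particles (right) against control. Filled points have an adjusted p under 0.05, and genes called with a change of over 0.9 are named. *Spic* (2.81 and 2.54), *Bach1*, *Maff*, *Slc11a1* and *Alas1* lie furthest to the right and *Id1* (-1.46 and -0.96) furthest to the left.

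RefSeq promoter windows of 300 bases (250 before and 50 after the start, GRCm38.p6) were read for *Blvra*, *Blvrb*, *Fth1*, *Ftl1*, *Ncoa4* and *Tfrc*, 6 of the 10 genes, in 11 windows. The core letters of the antioxidant response element, TGACNNNGC, were searched for on both strands because NRF2 and BACH1 bind it. They were present in *Blvra* (TGACCGAGC, -49 to -41 from the start) and *Ncoa4* (TGACCTGGC, -44 to -36). Over all genes with such windows 13.991% held a match, as did 12.392% of all 32851 windows. The AP-1 letters TGANTCA, which can share their opening bases with that core, were in none of the 11 windows and in 7.808% of all windows. The source held no window for *Hmox1*, *Slc48a1*, *Slc40a1* and *Slc11a2*, so the search says nothing about these genes. Sites outside the 300 bases were not searched in any gene. A match is a description of letters and not of a bound site.

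Some of the 10 genes share ground with other annotated genes. *Ftl1* overlaps *Gm22133* on the same strand and *Gm10252* on the other, which held at most 7.12 and 287 counts in any library, against at least 138031 counts for *Ftl1*. *Slc48a1* overlaps *Hdac7* on the other strand (at most 13 counts) and *Slc11a2* overlaps *Gm5475* (at most 2 counts), against at least 3619 and 1538 counts for the genes themselves. Whether the counting used the strand is not given in the sources used here.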

How the data were processed

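RNAseq was measured in 9 libraries of RAW 264.7 cells, grouped by their labels. The authors mapped reads with Salmon 0.14.1 to mouse transcripts of GRCm38.p6 (named in the submitters' processing notes) and deposited estimated counts per gene, summarized with tximport. The methods state a scaling of counts by transcript length and library size, but 58.3% of the deposited values over 10 were exactly whole and 75.1% were whole within 0.01, and the values were treated as unscaled. Intervals and depth (22393893 to 22856792 counts) cover these libraries only, and since each is a pool, p-values measure the spread between pools, which may be partly technical.

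The 12637 genes that exceeded 10 counts in 3 or more libraries were normalized with TMM in edgeR 4.0.16, weighted with voom and fitted with limma 3.58.1 in R 4.3.3, in 1 model of the 9 libraries, with Benjamini-Hochberg adjustment. The fits were tested on simulated counts. The ferritin share and ratio were compared with two-sided exact permutation tests in scipy 1.17.1. Symbols matched 54346 of 54432 gene identifiers. Coordinates, transcripts and lengths are those of GENCODE for GRCm38, in the release before the authors' own, and promoters from RefSeq (GRCm38.p6). Estimated counts were rounded for edgeR's quasi-likelihood test and DESeq2 1.42.0.

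The genes and lists were chosen with earlier results of these data known. From the 81 further genes, those called with both particles with an absolute log2 fold change over 0.5 in both were named, plus *Hmox2*, *Aco1*, *Ireb2*, *Nfe2l2*, *Bach1* and *Slc11a1*. *Ftl* and *Fth* copies were summed. Groups share replicate numbers. Deviations of same-numbered libraries from their group means were correlated across genes. The values were 0.138, 0.132 and 0.293 for VLDL-sized and control, and 0.124, 0.0684 and 0.338 for CHYL-sized and control. For the particles they were 0.0286, 0.117 and 0.357. Differently numbered replicates 1 and 2 gave 0.116 and 0.0124, 0.155 and 0.111, and 0.169 and 0.179 in these comparisons. Replicate 3 alone stood apart, so the numbers were not shown to pair replicates 1 and 2. The main model used the group only, with the replicate number as a block among the alternatives. No label gives a pairing. Alternatives were edgeR, DESeq2, limma-trend (prior count 2), upper-quartile scaling, library size only, no filter, a filter of 50 counts, only the groups compared, a replicate block, removal of replicate 3 of every group, and each library left out.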

Additional observations from a re-analysis of the deposited data

How the results depend on the processing

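The calls of *Hmox1*, *Blvrb*, *Slc48a1*, *Fth1*, *Ftl1* and *Slc40a1* against control, and of *Slc11a2* with VLDL-sized particles, kept their direction and side of the threshold under all alternatives run. Of 1148 alternative values for single genes, 1077 kept both, 42 lost and 20 gained a call, and 9 changed sign. The number of the 10 genes called ranged from 7 to 10 with VLDL-sized and from 6 to 7 with CHYL-sized particles. Between the particles it was 1 (*Hmox1*) without replicate 3 of every group, when 232 genes in all (1.84%) were called. Under the other alternatives it was 0. With each library left out in turn, the called genes of the wider pathway ranged from 14 to 24 with CHYL-sized particles. The 14 were without control replicate 2, when 19% of all genes were called. The values that changed sign were all uncalled. With library size only they were *Tfrc* with CHYL-sized particles (-0.0193) and *Ireb2* with VLDL-sized particles (-0.00884). With a library left out, *Nfe2l2* ranged from -0.230 to 0.0131 with VLDL-sized and from -0.203 to 0.0398 with CHYL-sized particles, and the differences between the particles ranged from -0.0148 to 0.112 for *Blvrb* and from -0.113 to 0.220 for *Slc40a1*. The cause was not tested. With the replicate block, genes called over all rose from 4500 to 6058 with VLDL-sized particles, from 3249 to 4949 with CHYL-sized particles and from 0 to 147 between the particles, *Tfrc* and *Lrp1* (VLDL-sized) and *Hmox2*, *Mafk* and *Pcbp1* (CHYL-sized, adjusted p = 0.0108, 8.60e-05 and 0.0253) gained a call, and no other call of the named genes changed. With 3 libraries a group, intervals of small changes such as those of *Blvra*, *Ncoa4* and *Tfrc* are as wide as the changes.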
